A study of Mus musculus with 4 samples.

Results

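The genes described here make, break down and regulate the polyamines: *Odc1*, *Srm*, *Sms* and *Amd1* (synthesis), *Sat1* (catabolism), *Oaz1* and *Oaz2* (antizymes) and *Azin1* (antizyme inhibitor). The members were all probes of the array, control spots aside, that carry 1 of these 8 names. 6 of the 8 genes had a probe under their own name, among 30175 gene names, with 15 probes among 39429. No probe was listed as *Oaz2* or *Amd1*, and the probes that stand closest to these names are given below under the names the array uses. RNA came from NIH-3T3:Per2-Luc, a mouse fibroblast line with a luciferase reporter driven by the *Per2* promoter. Cells were cOS-pulsed, meaning that they were given critical oxidative stress by 5 mM H2O2 for 10 min, and harvested 4 h, 20 h and 32 h later. The control, with 0 mM H2O2, received fresh medium and is labelled 4 h. Each condition was 1 array, and all 4 arrays lay on 1 slide, so there was no replicate and the values below are given without tests or p-values. All ratios to the control share this single array, and no control of 20 h or 32 h was compared.

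Polyamines (putrescine, spermidine and spermine) are small cations that bind RNA and DNA and are needed for cell growth. Ornithine decarboxylase (ODC, from *Odc1*) makes putrescine from ornithine. S-adenosylmethionine decarboxylase (from *Amd1*) supplies the aminopropyl groups with which spermidine synthase (*Srm*) and spermine synthase (*Sms*) build the longer polyamines. Spermidine/spermine acetyltransferase (*Sat1*) marks them for export or oxidation. Antizyme (*Oaz1*, *Oaz2*) binds ODC, delivers it to the proteasome and lowers polyamine uptake, and its translation needs a ribosomal frameshift that polyamines promote. Antizyme inhibitor (*Azin1*) resembles ODC without its activity and sequesters antizyme. Much of this control is exerted on translation and on protein stability, which the arrays do not measure.

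Each probe is 60 bases long, and several of them overlap, so they are not separate readings of a gene. The sequences below show where *Odc1* and *Oaz1* were read and which bases separate the overlapping probes. The coding probe of *Odc1* is whole and the others are given as 30 bases. Capitals mark the bases that differ from, or follow, the run shared with the neighbouring probe.
Odc1, base 729 of the transcript, whole probe: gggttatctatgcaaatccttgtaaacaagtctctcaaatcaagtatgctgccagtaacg
Odc1, base 2069, last 30 bases: gtgaaaataaagtatcttgaaataactggg
Odc1, base 1962, last 30 bases: aataaagtatcttgaaataactgggAAAAA
Odc1, base 2107, first 30 bases: aaagtatcttgaaataactgggCATCGGGG
Oaz1, base 950, last 30 bases: caaatccaataaagtgatctcgttAAAAAA
Oaz1, base 1014, last 30 bases: caaatccaataaagtgatctcgttCATTGG
The *Odc1* probes at bases 2069 and 1962 matched at 54 of 55 aligned bases, and that at 1962 ended in a run of A after the shared stretch. The *Odc1* probe at base 2107 began with 22 bases of the same stretch and read on past it. The *Oaz1* probes shared a run of 54 bases and differed in their last bases. A probe is named here by its gene and by the base of its transcript that the array gives, and these bases count along different deposited transcripts of a gene.

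Each value is a scaled log2 signal, the log2 of the background-subtracted intensity minus the 75th percentile of the array, so that 0 is the level of the 75th percentile. A log2 ratio is the difference between 2 arrays in this signal, and its error (0.20 to 0.40) was propagated from the scanner's error of the 2 spots and covers the spot only. All 15 probes were single spots, all were well above background on all 4 arrays, and none was flagged or saturated. On these arrays, 52.7% to 59.1% of all probes were well above background. All 10 fibroblast markers were detected on all 4 arrays, while *Ptprc*, which marks leukocytes, and 3 of 4 epithelial markers were detected on none. *Krt8*, *Pecam1*, *Kdr*, *Cd68* and *Cd3e* were detected on all 4. Scaling matters at each time. Before it, the 75th percentile of the 4 h array lay -0.28 from the control on the log2 scale, while its median lay 0.08 above. At 20 h the 75th percentile and the median lay 0.33 and 0.23 above, and at 32 h 0.18 and 0.15. Scaling by the median lowered every 4 h ratio by 0.36, and scaling by the spike-in RNA lowered it by 0.40. In the same order, these scalings raised the 20 h ratios by 0.10 and 0.20 and the 32 h ratios by 0.03 and 0.16. RNA was measured in bulk, and fewer transcripts per cell and fewer cells that carry them cannot be told apart.

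*Odc1*, the rate-limiting enzyme of polyamine synthesis, was 2.81-fold to 4.39-fold above the control at 4 h with all 4 of its probes, and was below the control with all 4 at 20 h and 32 h. The coding probe at base 729 (mm9 chr12:17554799-17554858) had scaled log2 signals of 0.01 in the control, 1.52 at 4 h, -0.44 at 20 h and -0.36 at 32 h. The 4 h array stood above the other three, and the late arrays stood close together under the control. Its log2 ratios to the control were 1.51 ± 0.20 at 4 h, -0.45 ± 0.20 at 20 h and -0.37 ± 0.21 at 32 h.

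The other 3 *Odc1* probes overlap at the 3' end of the gene (mm9 chr12:17557831-17557928). At base 1962 the signals were 2.24 in the control, 3.83 at 4 h, 1.76 at 20 h and 2.02 at 32 h, with a log2 ratio of 1.59 ± 0.20 at 4 h. At base 2069 they were 3.51, 5.00, 2.95 and 3.22 in the same order, with 1.49 ± 0.20 at 4 h. These overlapping probes and the coding probe gave 4 h ratios that differ by less than the error of a single ratio. The probe at base 2107, which reads beyond the stretch that the others share, had -1.08 in the control, 1.05 at 4 h and -1.59 at both 20 h and 32 h. Its ratio at 4 h, 2.13 ± 0.21, was the highest of all 15 probes. What sets this probe apart from the rest of the gene was not tested.

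**Figure D1:**
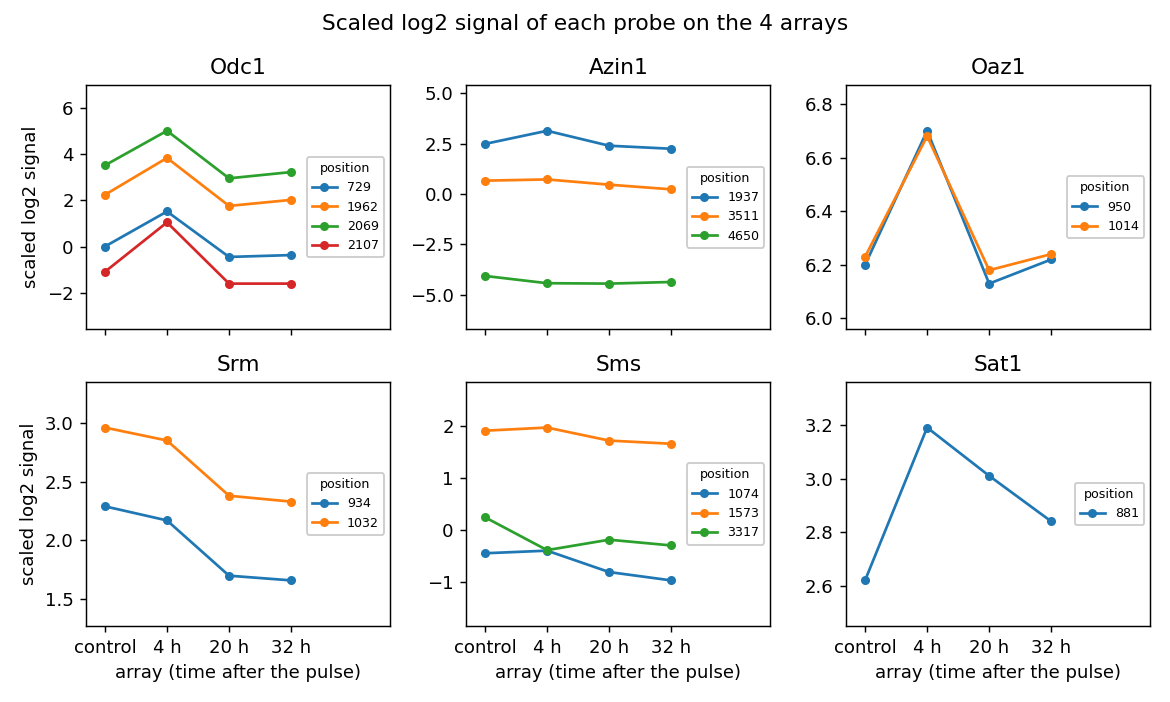
Scaled log2 signal (vertical axis, 0 is the 75th percentile of the array, each panel with its own range) on the 4 arrays (horizontal axis) for the probes of 6 genes, with 1 line per probe labelled by its base in the transcript and 1 array per point. All 4 lines of Odc1 peak at 4 h and end below the control, and Sat1 stays above the control. The step of Srm from 4 h to 20 h, -0.47 here, is 0.14 without scaling. Oaz1 at 20 h, just below the control here, lies above the control under 5 of 6 other scalings.

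After 4 h, *Odc1* was lower on both late arrays. At 20 h the ratios to the control ran from -0.56 to -0.45 over the 4 probes, that is 0.678 to 0.732 times the control, and at 32 h from -0.51 to -0.21. From 4 h to 20 h the log2 ratio was -2.07 to -1.96 for 3 probes and -2.64 ± 0.21 for that at base 2107. Between the late arrays the ratio of 20 h over 32 h was -0.27 ± 0.20 at bases 1962 and 2069, and -0.08 and 0.00 at the other probes, within the error. Under the 6 other scalings the 4 h ratios of *Odc1* ran from 1.09 to 2.12, those at 20 h from -0.58 to -0.12 and those at 32 h from -0.52 to -0.03. The direction was the same under every scaling, and all 4 probes stayed past 2-fold at 4 h.

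*Azin1*, whose product frees ODC from antizyme, was read by 3 probes that do not overlap, and they gave 3 different ratios at 4 h. At base 1937 (mm9 chr15:38420056-38420115) the signals were 2.48 in the control, 3.13 at 4 h, 2.39 at 20 h and 2.24 at 32 h. Its 4 h array stood highest, with a log2 ratio of 0.66 ± 0.20 (1.57-fold), and its late ratios were -0.08, which turned above 0 under 3 of the 6 other scalings, and -0.24. At base 3511 (chr15:38418482-38418541) they were 0.66, 0.72, 0.46 and 0.23, with 0.07 ± 0.20 at 4 h, -0.20 at 20 h and -0.43 at 32 h. The third, at base 4650 (chr15:38417343-38417402), was dim, with -4.06 in the control and -4.42, -4.44 and -4.36 after the pulse. Its 3 ratios lay between -0.38 and -0.30, each about as large as its error of 0.36 to 0.40. The order of the probes along the transcript was thus the order of their 4 h ratios, from high to low. With another background correction (normexp) the probes at bases 3511 and 4650 nearly coincided, at 0.01 and -0.05. The ratio at base 1937 stayed above 0 under all 6 other scalings (lowest 0.25), and that at base 3511 turned below 0 under 5 of them. Its 20 h ratio turned above 0 under 2.

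*Oaz1*, the main antizyme, was above the control at 4 h and within the error of it later, and its overlapping probes gave nearly the same ratios (mm9 chr10:80291975-80292035). Base 950 had signals of 6.20 in the control, 6.70 at 4 h, 6.13 at 20 h and 6.22 at 32 h. Base 1014 had 6.23, 6.68, 6.18 and 6.24. The 4 h array stood above the other three with both, at 0.50 ± 0.20 and 0.44 ± 0.20 (1.41-fold and 1.36-fold), while every late ratio lay between -0.07 and 0.02. Under the other scalings the 4 h ratios ran from 0.02 to 0.38, and those at 20 h turned above 0 under 5 of the 6. Without scaling, those at 20 h (0.26 and 0.27) exceeded those at 4 h (0.22 and 0.16). The transcribed pseudogene *Oaz1-ps* is close in sequence, and whether it shares signal with these probes was not tested.

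A difference between 2 genes on the same arrays does not depend on a constant subtracted from each array. At 4 h the ratios of *Odc1* exceeded those of *Oaz1* by 0.99 to 1.69 on the log2 scale, over all pairs of their probes. At 20 h they lay below them by a median difference of -0.43, and at 32 h by -0.34. Which of the 2 genes lay further from the control at the late times depends on the scaling, since without scaling *Oaz1* had 0.26 and 0.27 at 20 h.

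2 probes are listed as *Oaz2-ps*. Their transcript accessions carry the name *Oaz2* in RefSeq. On the array's map they lie between *Rbpms2* and *Zfp609*, which also flank *Oaz2* in RefSeq. They had log2 ratios of 0.70 ± 0.21 (base 550) and 0.38 ± 0.20 (base 1781) at 4 h. The ratios at 20 h were 0.26 ± 0.21 and 0.19 ± 0.20, and those at 32 h 0.15 ± 0.21 and 0.19 ± 0.20. Of these late ratios, all but that of 0.26 lay within the error. Every ratio lay above 0, though that at base 1781 at 4 h turned below 0 under 2 of the 6 other scalings. At 4 h the first probe exceeded the second by more than the error of either.

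*Srm*, which makes spermidine, was read by 2 probes that share no stretch and gave the same ratios. The probe at base 934 (mm9 chr4:147968254-147968313) had 2.29 in the control, 2.17 at 4 h, 1.70 at 20 h and 1.66 at 32 h. That at base 1032 (chr4:147968433-147968492) had 2.96, 2.85, 2.38 and 2.33. Both were below the control, and further below it on the late arrays: the log2 ratios were -0.12 and -0.11 at 4 h, -0.59 and -0.59 at 20 h, and -0.63 and -0.63 at 32 h, each ± 0.20. At 32 h both were 1.55-fold below the control, the furthest below it of the 15 probes. Under the other scalings the late ratios of *Srm* ran from -0.67 to -0.25, and its 4 h ratios from -0.52 to -0.24, all below the control. The step from 4 h to 20 h, -0.47 for both probes, did depend on the scaling. It was -0.01 and 0.00 with the median, 0.13 with the spike-in RNA and 0.14 without scaling.

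*Sms*, which makes spermine, had log2 ratios below 0 on both late arrays with all 3 probes, except that base 1573 at 20 h (-0.19 ± 0.20) was within its error and turned to 0.15 without scaling and just above 0 with the spike-in RNA. At 4 h the probes split. At base 1074 (mm9 chrX:153885307-153885366) the signals were -0.44 in the control, -0.39 at 4 h, -0.80 at 20 h and -0.96 at 32 h. Base 1573 had 1.91, 1.97, 1.72 and 1.66, and at both probes the 4 h and control arrays stood above the late ones. The order of 4 h and 20 h turned at both probes under 4 of the 6 other scalings. Their 4 h ratios of 0.04 and 0.06 were within the error and turned below 0 under 5 and 6 of the 6 other scalings. The probe at base 3317, furthest towards the 3' end (chrX:153881886-153881945), had 0.25 in the control and -0.38, -0.18 and -0.29 after the pulse, with -0.62 ± 0.20 at 4 h. It was below the control at 4 h under every scaling, down to -1.03, which is past 2-fold. The 32 h ratios of the 3 probes were -0.53, -0.25 and -0.54.

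3 probes are listed as *Amd2*, a name for a retrocopy of *Amd1*. Their accessions carry the name *Amd2* in RefSeq. Yet on the array's mm9 map they lie between *Gtf3c6* and *Cdk19*, which flank *Amd1* and not *Amd2* in RefSeq. The 2 genes cannot be told apart here. The log2 ratios were 0.17 to 0.40 at 4 h, -0.33 to -0.20 at 20 h and -0.42 to -0.22 at 32 h, with an error of 0.20. The 4 h ratios at bases 1276 and 3117 turned below 0 under 4 and 5 of the 6 other scalings, and the 20 h ratios above it under 1.

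*Sat1*, which acetylates spermidine and spermine, was above the control on all 3 treated arrays, under each of the 7 scalings. *Oaz1* was so as well under 5 of the 6 alternatives, though not with the 75th percentile. Its single probe, at base 881 (mm9 chrX:151647856-151647915), had 2.62 in the control, 3.19 at 4 h, 3.01 at 20 h and 2.84 at 32 h. The log2 ratios of 0.58, 0.40 and 0.23, each ± 0.20, were lower at each later time, and the step from 4 h to 20 h (-0.18) and that from 20 h to 32 h (0.17 for 20 h over 32 h) were each within the error. Under the other scalings the ratios were 0.18 to 0.45 at 4 h, 0.38 to 0.73 at 20 h and 0.22 to 0.41 at 32 h, and the order of 4 h and 20 h turned under 5 of these 6. Relative to *Srm* on the same arrays, *Sat1* stood 0.69 higher at 4 h, 0.98 at 20 h and 0.86 at 32 h on the log2 scale. Relative to *Sms* the median difference was 0.53, 0.76 and 0.75.

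**Figure D2:**
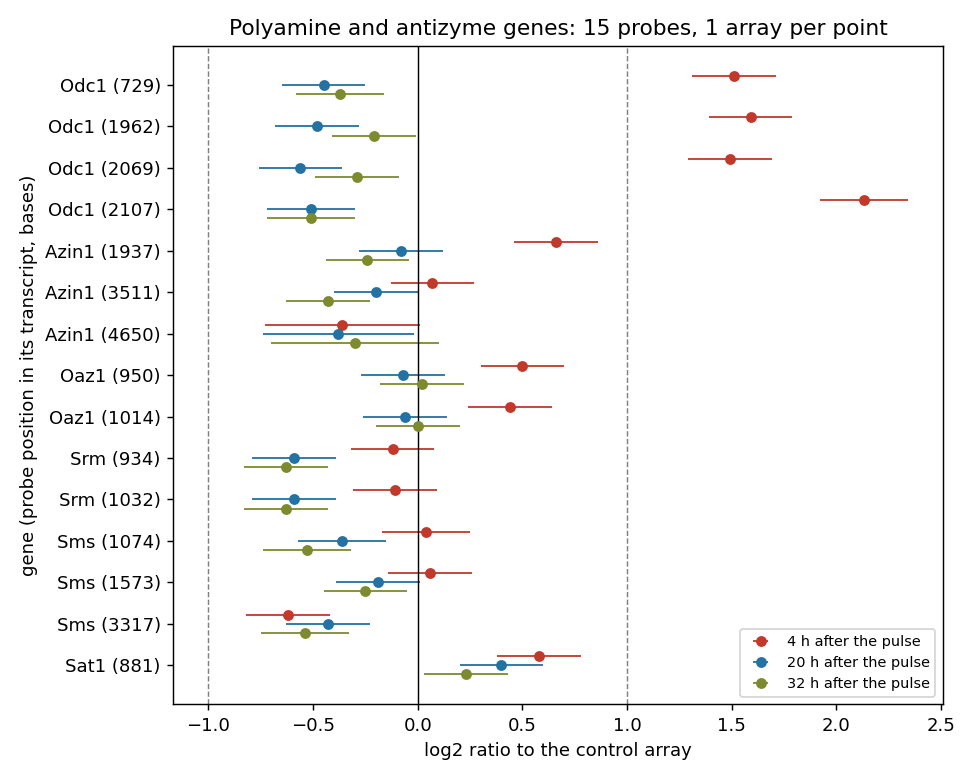
Log2 ratio to the control array (horizontal axis) for each of the 15 probes (vertical axis, gene and base in the transcript) at 4 h, 20 h and 32 h, with bars for the propagated spot error and dashed lines at 2-fold. The 4 Odc1 probes at 4 h, from 1.49 to 2.13, are the only points past 2-fold, and at 20 h 14 of 15 lie below 0, or 9 to 14 under the other scalings.

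Counted at 2-fold, 4 of the 15 probes were higher at 4 h, all of *Odc1*, against 11.2% of the 23813 probes with a ratio. None was lower, against 8.18%. At 20 h and at 32 h none of the 15 was 2-fold from the control in either direction, where 4.72% and 4.66% of all probes were. From 4 h to 20 h the 4 *Odc1* probes were lower, against 14.9% of all probes, and none was higher, against 9.07%. Between 20 h and 32 h none was 2-fold apart, against 2.83%. Since 3 of the 4 probes overlap, the count stands for 1 gene.

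Without a threshold, the 15 probes, those of *Odc1* included, had a median log2 ratio of 0.44 at 4 h. Over all 20392 probes measured on both arrays it was 0.17. The 4 h medians of the other genes were 0.07 for *Azin1*, 0.47 for *Oaz1*, -0.12 for *Srm*, 0.04 for *Sms* and 0.58 for *Sat1*. 11 of the 15, with all 4 of *Odc1* among these, lay above the control, where 60.2% of all probes did. Under the 6 other scalings 8 to 10 of them did, and their median was 0.04 to 0.32, against -0.23 to 0.05 over all probes. At 20 h the median was -0.38, with 14 of 15 below the control, against a median of 0.00 and 50.5% below over all probes. Under the other scalings 9 to 14 were below, with a median of -0.40 to -0.05 against -0.02 to 0.33 over all probes, and the count of 9 came with the spike-in RNA and without scaling. At 32 h it was -0.30, with 12 of 15 below, against -0.01 and 50.9%, and the other scalings gave 12 or 13 below. Between the late arrays the median of 20 h over 32 h was 0.04, against 0.01. The shares above the control at 4 h and below it at 20 h rest on genes with several probes each. They are counts of probes and not of separate genes.

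**Figure D3:**
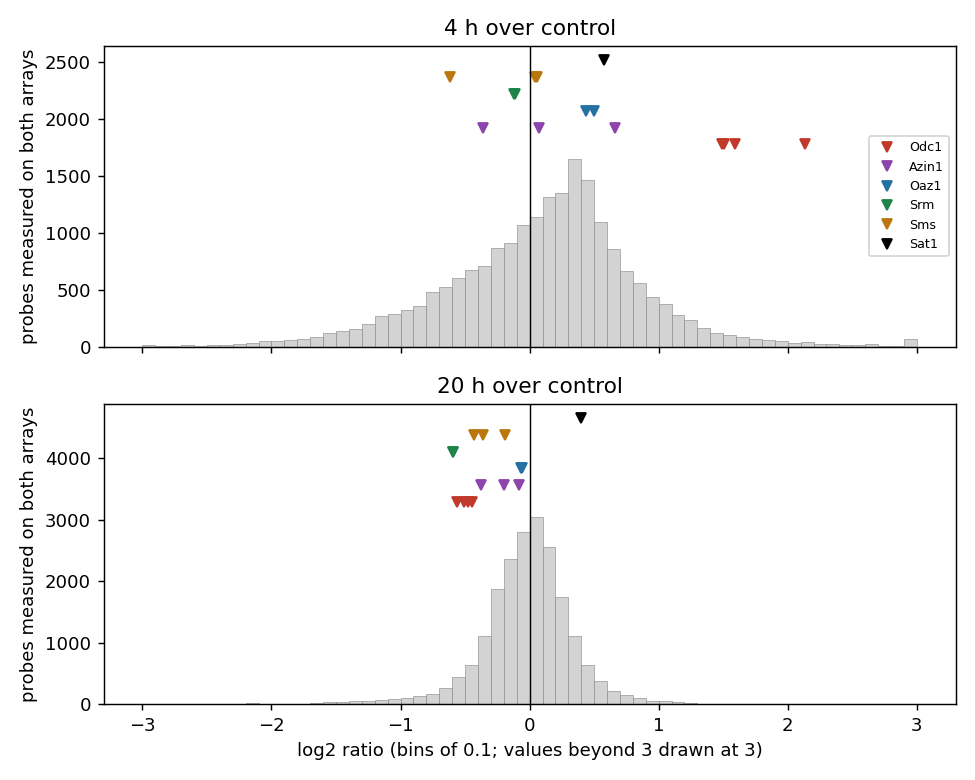
Histograms of the log2 ratio to the control for all probes measured on both arrays at 4 h (top) and 20 h (bottom), in bins of 0.1 with values beyond 3 drawn at 3; triangles mark the 15 probes by gene, and their height has no meaning. At 4 h only Odc1 lies in the right tail, and at 20 h 14 of the 15 triangles lie left of 0, or 9 to 14 under other scalings.

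**Figure D4:**
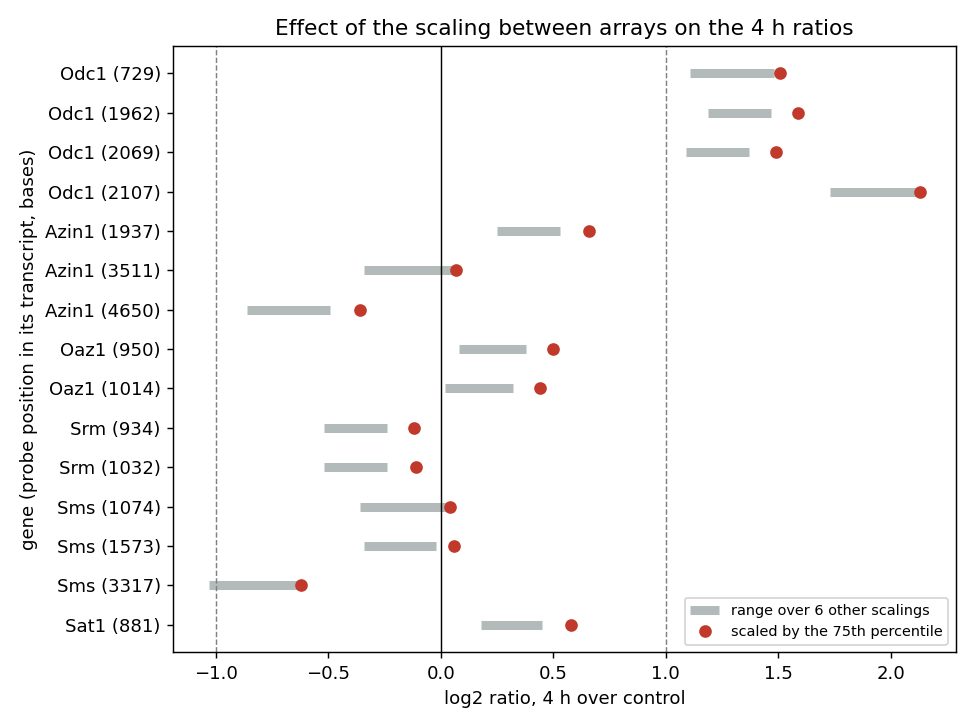
Log2 ratio of 4 h over the control (horizontal axis) for the 15 probes (vertical axis, gene and base in the transcript), with points for scaling by the 75th percentile, grey bars for the range over 6 other scalings and dashed lines at 2-fold. The bars of all 4 Odc1 probes stay above 1 on the log2 scale, while those of Azin1 at base 3511 and of Sms at base 1074 reach across 0.

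The wider pathway was followed through a list of 25 other genes, of which 24 had a probe, with 36 probes in all, 2 of them without a ratio at any time. *Azin2* is on the array under its older name *Adc*, and *Slc18b1* had no probe. At 4 h, 4 of the 34 probes with a ratio were at least 2-fold higher, against 11.2% of all probes, and 1 was lower, against 8.18%. Under the other scalings 3 were higher, without *Mat2a*, and 2 to 6 were lower. At 20 h and 32 h none was 2-fold from the control, against 4.72% and 4.66%. Their median log2 ratio was 0.20 at 4 h, -0.05 at 20 h and -0.07 at 32 h, close to that of all probes.

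Among transporters, *Slc3a2*, a heavy chain of amino acid transporters that has also been linked to polyamine export, had 3.64 in the control, 6.20 at 4 h, 3.82 at 20 h and 3.92 at 32 h. Its log2 ratio at 4 h, 2.57 ± 0.20 (5.92-fold), was the highest of the list. *Atp13a3*, a P-type ATPase of polyamine transport, had -1.33, 0.10, -1.36 and -1.38 in the same order, with 1.43 ± 0.21 at 4 h. *Atp13a2*, which exports polyamines from lysosomes, went the other way: it had 1.21 in the control, 0.26 at 4 h and 1.76 at both 20 h and 32 h, with -0.95 ± 0.20 at 4 h and 0.55 at both late times.

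The oxidases likewise moved apart. *Smox*, spermine oxidase, had 0.72 and 0.67 with its 2 probes at 4 h and -0.45 and -0.32 at 20 h, the last of which turned to 0.01 without scaling. *Paox*, which oxidises the acetylated polyamines that *Sat1* makes, had -0.84 and -0.80 at 4 h and 0.56 and 0.57 at 20 h, and its probes at bases 1677 and 1682 overlap. From 4 h to 20 h the *Paox* probes were higher by 1.40 and 1.37, and the *Smox* probes lower, at -1.17 and -0.99.

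Among the enzymes that serve methionine, *Mat2a*, which makes S-adenosylmethionine, had 1.04 and 0.96 (each ± 0.20) at 4 h and -0.29 (0.04 without scaling) and -0.66 at 20 h. *Mri1*, an isomerase of the methionine salvage that recycles the by-product of *Srm* and *Sms*, had 1.22 in the control, -0.98 at 4 h, 1.16 at 20 h and 0.95 at 32 h. It was 4.58-fold below the control at 4 h. With this scaling no other gene of the list was past 2-fold downwards, while with the median *Atp13a2*, *Paox*, *Apip* and *Sat2* were too.

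In the hypusine pathway, in which spermidine modifies the translation factor eIF5A, *Eif5a* had 0.62 ± 0.20 at 4 h, -0.45 at 20 h and -0.56 at 32 h. *Dohh*, the last enzyme of the modification, had 2.05 ± 0.21 at 4 h with the probe at base 1686. Its other probes had 0.02 and 0.36, so its probes disagreed by more than the error. The ratio of 0.02 turned below 0 under all 6 other scalings, and that of 0.36 under 3. Of the isozymes, *Sat2* had -0.68 and -0.54 at 4 h and 0.07 and 0.11 at 20 h. *Adc* (*Azin2*, the other antizyme inhibitor) had 0.34, which turned below 0 under 3 of the 6 other scalings, and 0.68 at 4 h, 0.16 and 0.53 at 20 h, and 0.61 and 0.77 at 32 h. *Oaz3*, the testis antizyme, was detected on none of the arrays, so it has no ratio.

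**Figure D5:**
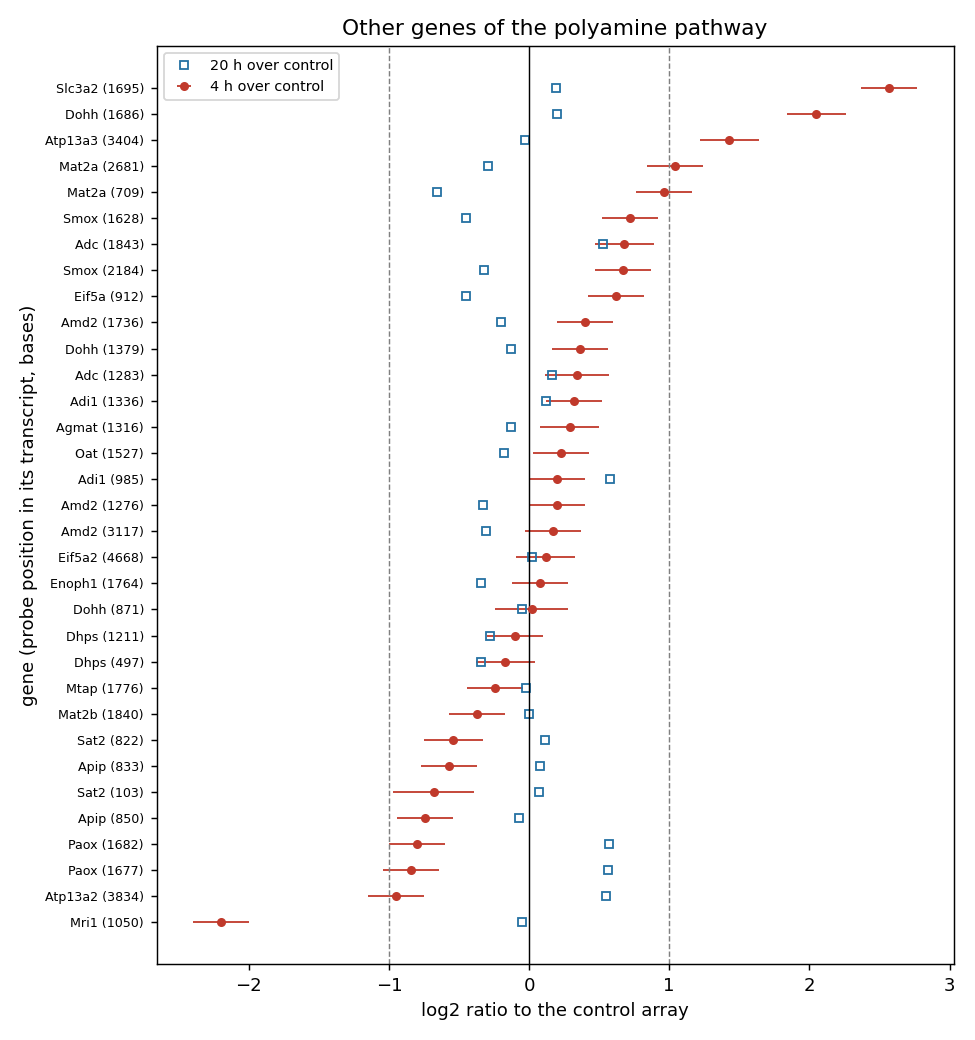
Log2 ratio to the control array (horizontal axis) at 4 h (red points, bars for the propagated spot error) and 20 h (blue squares) for the probes of the other pathway genes measured at 4 h (vertical axis, gene and base in the transcript), sorted by the 4 h ratio, with dashed lines at 2-fold. Slc3a2 (2.57) and Mri1 (-2.20) are the ends of the range at 4 h, and all squares at 20 h lie within 2-fold.

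The probes whose pattern over the 3 ratios was nearest to that of the *Odc1* probe at base 2107 were sought among 17281 probes that were well above background on all 4 arrays and carry a gene symbol. By Euclidean distance on the log2 scale, the 5 nearest were *Rcc1* (0.08), *Pip5kl1* (0.11), *Gm5914* (0.14), *Pcsk4* (0.19) and *Cdkn1a* (0.20). At 4 h, 20 h and 32 h the nearest, *Rcc1*, had 2.1, -0.43 and -0.5, and the furthest of the 5, *Cdkn1a*, had 1.97, -0.63 and -0.49. The probe at base 2107 was the starting point because its 4 h ratio was the largest of the 15 probes. The other *Odc1* probes lay further away, at 0.62 to 0.68, since their 4 h ratios were lower. The measure rests on 3 ratios that share 1 control, and describes likeness only.

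The 250 bases before the start of *Odc1* and *Oaz1* (RefSeq, GRCm38.p6) are shown for their base composition and for the motifs they hold. Both genes were above the control at 4 h, though *Oaz1* by as little as 0.02 under another scaling. *Sat1* was above it as well, and its window is not printed. A capital stretch marks a match.
Odc1, chr12:17544623-17544872, plus strand: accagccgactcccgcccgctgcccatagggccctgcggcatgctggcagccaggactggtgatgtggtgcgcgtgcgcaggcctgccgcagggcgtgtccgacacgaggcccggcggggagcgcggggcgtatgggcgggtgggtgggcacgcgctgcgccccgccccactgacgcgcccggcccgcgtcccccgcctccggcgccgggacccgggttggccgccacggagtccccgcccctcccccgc
Oaz1, chr10:80826406-80826655, plus strand: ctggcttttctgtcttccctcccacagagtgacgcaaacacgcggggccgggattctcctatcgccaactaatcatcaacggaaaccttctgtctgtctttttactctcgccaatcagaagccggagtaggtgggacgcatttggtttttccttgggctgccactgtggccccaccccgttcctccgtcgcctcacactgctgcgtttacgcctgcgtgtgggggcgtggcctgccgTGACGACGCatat
The *Odc1* window is 80.0% G and C and that of *Oaz1* 58.0%. Both strands were searched for the E-box CACGTG, the core of the antioxidant response element TGACNNNGC, the heat shock element GAANNTTC and the cyclic AMP response element TGACGTCA. Among 32851 promoters of this length, 6.02%, 10.2%, 6.69% and 1.55% hold them, in this order. *Oaz1* had 1 match, to the antioxidant core at position -13, and the *Odc1* window had none. Of the other windows, 1 of the 2 of *Sms* held an E-box at position -196, and those of *Sat1*, *Oaz2*, *Amd1* and *Amd2* held none of the 4 motifs. The windows of *Azin1* and *Srm* were not used here. A match is a description of letters only, and the lack of one says only that these letters are not in this window.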

How the data were processed

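RNA of 4 samples (1 per condition) was hybridized to one-color Agilent mouse arrays. The authors deposited, per spot, intensity values from Feature Extraction 10.7.3.1 (background subtracted, annotated on mm9). They also deposited a table of linear signal values, which equal these intensities divided by 1 constant per array (44397 spots checked). From each probe's mean log2 intensity over unflagged spots, the array's 75th percentile (39429 probes) was subtracted. Detection asked that 50% or more of a probe's spots carry the scanner's well-above-background flag. Ratios were measured between arrays that both detected a probe, and were bounds where only 1 did. The threshold was 2-fold. With 1 array per condition, precision is limited by array number, and the SAM test that the study names was not run. Steps were tested on simulated data.

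Named were all probes of the 8 genes, pathway genes past 2-fold in any comparison or isozymes, and the 5 probes nearest in pattern. Members and lists were chosen with earlier results of these data known. RefSeq served for names, neighbours and promoters. Whether probes are unique in the genome was not checked. Alternatives were 6 scalings, normexp (offset 50), detection and flag rules, thresholds of 1.5-fold and 3-fold, and the deposited table. Python 3.11.15, numpy 2.4.6, pandas 2.3.3, R 4.3.3 and limma 3.58.1 were used.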

Additional observations from a re-analysis of the deposited data

Results flagged for a closer look

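*Odc1* lay on opposite sides of the control at 4 h and later, and with 1 array per time the difference was not tested. Its 4 probes, in the order of bases 729, 1962, 2069 and 2107, had log2 ratios of 1.51, 1.59, 1.49 and 2.13 at 4 h, against -0.45, -0.48, -0.56 and -0.51 at 20 h and -0.37, -0.21, -0.29 and -0.51 at 32 h. *Azin1* at base 1937 had 0.66 at 4 h and -0.24 at 32 h, likewise not tested.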

How the results depend on the processing

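The count of probes at least 2-fold from the control at 4 h was 4, and with a 3-fold threshold it was 2. With a 1.5-fold threshold the count at 20 h was 2 and at 32 h also 2, in place of none. No other alternative among 14 moved the count of a comparison by more than 1.5 times. Where a scaling turned the direction of a small ratio, this is given beside the gene in most cases, and a small ratio without such a remark may also turn. Of 900 single log2 ratios recomputed, 79 changed sign, none of them a ratio past 2-fold, and 144 moved by more than the spot error. Those of *Odc1* to the control kept their direction under all of them. 1 scaling, by the spike-in RNA without the probe furthest from the others, was chosen after seeing the data. No paired analysis was possible because each group is 1 array. Leaving out a replicate was not possible for the same reason. All 15 probes were well above background, so signal over background limits only the dim *Azin1* probe at base 4650, and the lack of replicates limits every ratio.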
